A study of Mus musculus with 18 samples.

Results

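The mitochondrial chromosome was represented by every gene whose chromosome is given as MT in the deposited tables, 33 genes of the 27830 listed for any subset. These were 13 mRNAs, 2 rRNAs and 18 tRNAs, chosen by position alone. All 33 were listed for naive and memory cells and 32, without mt-Ti, for effector cells. Of these genes, 22 in each of the naive and effector comparisons and 24 in the memory comparison reached 10 normalised reads in 3 or more libraries and were tested, among them all 13 mRNAs and both rRNAs in each subset. Poly-A RNA was sequenced from CD8+ T cells of mice labelled as a conditional knockout (cKO) of Hspa9 or as wild type (WT). Hspa9 encodes GRP75, a chaperone of the mitochondrial matrix that helps to pull imported proteins across the inner membrane. The 6 groups, with 3 libraries each, were naive cKO, naive WT, effector cKO, effector WT, memory cKO and memory WT. Naive cells, labelled as without treatment, were taken from spleen and lymph nodes of mice 8 weeks old, and the effector and memory cells were derived from naive cells in culture. The labels do not give the strain, the line that drives the deletion, the deleted part of Hspa9 or the culture conditions, and leave unsaid if each replicate was another mouse, so p-values measure the spread between these libraries, which may be technical. Values are reads divided by 1 size factor per library and are called normalised reads, and fold changes are log2 differences of cKO minus WT.

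Mitochondrial DNA codes for a small set of membrane proteins at the core of respiratory complexes I, III and IV and of the ATP synthase (complex V), and for the rRNAs and tRNAs of the ribosome that makes them. Both strands are transcribed into long precursors, which are cut at the tRNAs, and the released mRNAs mostly receive short poly-A tails. Most mRNAs lie on the same strand, while mt-Nd6 and several tRNAs are read from the other. T cells raise respiration and mitochondrial mass when they are activated, and memory cells are known to rely on mitochondrial respiration.

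The sequences below show which reads of these genes could be assigned in more than one way. They are transcript sequences of GENCODE M21 on build GRCm38, in which all 33 genes had the same positions on the mitochondrial chromosome as in the deposited GRCm39 tables. mt-Atp8 (chrMT:7766-7969, plus strand) ends in 43 bases, in capitals, that are also the start of mt-Atp6.
mt-Atp8: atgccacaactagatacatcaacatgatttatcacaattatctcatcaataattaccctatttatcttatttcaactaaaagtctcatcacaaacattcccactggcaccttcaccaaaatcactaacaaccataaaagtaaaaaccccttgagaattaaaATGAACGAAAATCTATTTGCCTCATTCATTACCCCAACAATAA
The first 90 bases of mt-Co2 (chrMT:7013-7696, plus strand) and of mt-Atp6 (chrMT:7927-8607, plus strand) are identical to those of the chromosome 1 genes Gm28661 (chr1:24614885-24615565, minus strand, GRCm38) and Gm10925 (chr1:24613974-24614651, minus strand, GRCm38).
mt-Co2: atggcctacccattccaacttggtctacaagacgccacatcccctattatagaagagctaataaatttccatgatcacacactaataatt
Gm28661: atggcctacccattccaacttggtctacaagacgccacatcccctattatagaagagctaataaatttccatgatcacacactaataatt
mt-Atp6: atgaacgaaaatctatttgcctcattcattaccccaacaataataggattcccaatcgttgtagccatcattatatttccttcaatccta
Gm10925: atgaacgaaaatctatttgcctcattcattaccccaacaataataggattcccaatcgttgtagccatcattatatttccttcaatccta
mt-Nd3 (chrMT:9459-9806, plus strand) and Gm28438 (chr1:24612775-24613119, minus strand, GRCm38) differed at 1 of 345 aligned bases, the base in capitals.
mt-Nd3: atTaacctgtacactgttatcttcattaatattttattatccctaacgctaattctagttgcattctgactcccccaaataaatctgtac
Gm28438: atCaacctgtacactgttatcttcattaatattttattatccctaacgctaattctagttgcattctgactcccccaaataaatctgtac
The tRNAs for cysteine, tyrosine and glutamate, mt-Tc (chrMT:5192-5257), mt-Ty (chrMT:5260-5326) and mt-Te (chrMT:14071-14139), all on the minus strand, are shown with the anticodon in capitals, since among the 7 tRNA genes tested in naive cells their log2 differences were the largest above WT.
mt-Tc: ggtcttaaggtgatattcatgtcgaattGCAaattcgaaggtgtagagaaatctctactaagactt
mt-Ty: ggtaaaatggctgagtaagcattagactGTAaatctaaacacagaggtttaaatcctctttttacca
mt-Te: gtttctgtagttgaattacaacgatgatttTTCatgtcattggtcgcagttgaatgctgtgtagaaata

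The libraries held 14771251 to 18049774 reads assigned to genes. Hspa9 itself went against the label. It had 6448, 6718 and 6149 normalised reads in the naive libraries labelled cKO, against 4095, 3789 and 4093 in WT, and the same order held in effector (2168, 2450.1 and 2401, against 2001, 2138 and 2140.0) and memory cells (5778, 5669 and 5463, against 3916, 4154 and 4053). A direction below therefore sets libraries labelled cKO against libraries labelled WT, whatever the deletion did. In naive cells the Y-linked Ddx3y had 3056, 2895 and 2771 normalised reads in the libraries labelled cKO and 0 in each WT library, and Xist, which coats the inactive X, had 4627, 4549 and 4109 against 16843, 14705 and 17631. The Y-linked Ddx3y, Eif2s3y, Kdm5d and Uty were not listed for effector or memory cells, where no listed gene was at 0 in every library. The naive genotypes therefore also differed in sex-linked transcripts, and that difference and the genotype cannot be told apart in naive cells. The same limit reaches each comparison below that uses the naive libraries. Xist was also lower in effector libraries labelled cKO, by a smaller amount, with 12503, 12387 and 12848 normalised reads against 14930, 13696 and 14738 in WT (log2 difference -0.20). In memory cells the Xist groups overlapped. None of 12 CD8 T cell markers was at 0 in any group, and their sum was 6149.8 to 6476 CPM in naive libraries labelled cKO and 6727 to 7064 CPM in naive WT, 6881 to 7078 CPM against 7295 to 7371 CPM in effector cells, and 5297 to 5991 CPM against 6169 to 6578 CPM in memory cells. Markers of other cells or states also differed between the genotype labels. They are counted as higher or lower where limma gave an adjusted p (Benjamini-Hochberg) under 0.05. Over all genes tested this held for 12.9% higher and 11.9% lower in naive cells. The shares were 10.7% and 9.37% in effector cells, and 12.1% and 7.00% in memory cells. Of 4 gamma-delta T cell markers tested, 4 were higher in each subset. The sum over all 5 listed was 50.5 to 59.2 CPM in naive libraries labelled cKO and 9.36 to 10.9 CPM in naive WT. In memory cells it was 117 to 153 CPM against 15.9 to 16.5 CPM (CPM, counts scaled to an equal library total). CD4 T cell markers were higher for 5 of 6 in naive cells (169 to 192 CPM against 76.8 to 88.0 CPM), erythroid markers for 7 of 7 in effector cells (99.6 to 103 CPM against 14.5 to 16.4 CPM) and myeloid markers for 11 of 13 in memory cells (559 to 706 CPM against 166 to 185 CPM). In naive cells the myeloid sum was 132 to 134 CPM against 138 to 147 CPM and the erythroid sum 0.323 to 0.997 CPM against 0.189 to 11.2 CPM, and C1qa and Slc4a1 were not analysed here in naive cells. In effector cells 4 of 6 NK cell markers were higher and 2 lower (395 to 397 CPM against 212 to 230.4 CPM), and myeloid markers were higher for 8 of 13 and lower for 1 (231 to 242 CPM against 167 to 175 CPM). In memory cells 4 of 6 NK cell markers were higher (249 to 273 CPM against 130.0 to 149.7 CPM), as were 5 of 7 erythroid markers (60.7 to 76.6 CPM against 23.4 to 32.3 CPM). Of 9 effector T cell markers 8 were higher and 1 lower there (584 to 646 CPM against 364 to 398 CPM), and 7 of 8 naive T cell markers were lower (6100.3 to 6621 CPM against 8040.4 to 8435 CPM). In effector cells the CD4 sum was 179 to 194 CPM against 154 to 161 CPM. In memory cells it was 259 to 334 CPM against 312 to 339 CPM. The sum of 10 B cell markers was 353 to 387 CPM in naive libraries labelled cKO and 441 to 479 CPM in naive WT. It was 166 to 176 CPM against 156 to 159 CPM in effector cells. For memory cells it was 750 to 833 CPM against 640 to 692 CPM. The part of these cells in the results below was not tested.

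Reads of the mitochondrial chromosome made up a smaller share of the naive and memory libraries labelled cKO than of WT, and a slightly larger share of the effector libraries labelled cKO. In naive cells the share was 0.845, 0.881 and 0.736% in the libraries labelled cKO, against 2.23, 1.86 and 2.27% in WT. In effector cells it was 2.14, 2.15 and 2.23%, against 1.90, 1.79 and 1.89%. In memory cells it was 1.85, 1.48 and 1.33%, against 2.35, 2.48 and 2.39%. The groups did not overlap in any subset, and p was 0.1 in each by exact permutation of the labels (two-sided), the smallest value that 3 libraries against 3 allow (0.12 after Benjamini-Hochberg adjustment over 21 such comparisons). Fewer mitochondria-rich cells and less mitochondrial RNA per cell cannot be told apart in these bulk libraries. The classes of RNA did not move together. For every 100 reads of mitochondrial mRNA, naive libraries labelled cKO held 18.0, 17.7 and 17.3 reads of rRNA, against 3.02, 4.34 and 4.32 in WT, a ratio of means of 4.53. Memory libraries labelled cKO held 8.55, 8.85 and 9.32, against 5.27, 5.10 and 5.21 in WT, a ratio of 1.72. In effector cells the values overlapped, with 7.96, 6.16 and 5.73 against 7.34, 7.45 and 7.26 (exact permutation test, p = 0.4), while naive and memory groups stood apart (p = 0.1 each). Reads of tRNA genes per 1000 mRNA reads averaged 7.38 ± 0.761 in naive cKO libraries and 1.60 ± 0.0742 in naive WT libraries (SD, n = 3 each). They averaged 2.35 ± 0.244 in effector cKO and 2.89 ± 0.0541 in effector WT libraries, and 4.15 ± 0.354 in memory cKO and 2.95 ± 0.125 in memory WT libraries. These ratios of RNA classes were chosen after their values were seen.

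**Figure D1:**
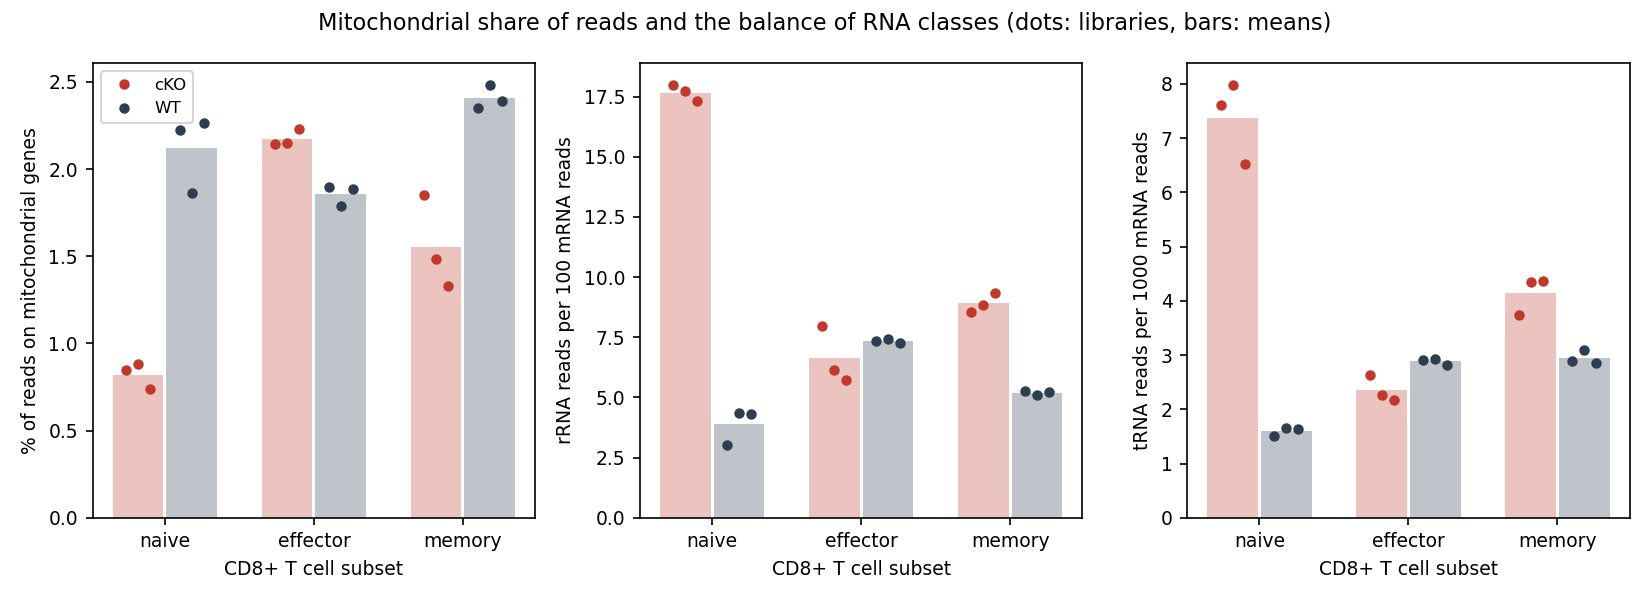
Percent of each library's reads that lay on the mitochondrial chromosome, and reads of mitochondrial rRNA and tRNA relative to reads of mitochondrial mRNA, by CD8+ T cell subset and genotype label (dots are libraries, bars are means, n = 3). The naive share averages 0.821% in libraries labelled cKO and 2.12% in WT, while rRNA per mRNA read runs the other way.

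The naive comparison asks how mitochondrial transcripts differed between the genotype labels before any culture. Across the chromosome, 12 of the 13 mRNAs fell and mt-Nd3 rose, both rRNAs rose, and of 7 tested tRNAs 5 rose, 1 fell and 1 was not called. The median log2 difference was -1.35 over 7 complex I mRNAs, mt-Nd3 included, -1.67 for mt-Cytb of complex III, -2.16 over 3 complex IV mRNAs and -2.29 over 2 complex V mRNAs. Of the complex IV and V mRNAs, mt-Co2, mt-Co3 and mt-Atp6 are matched nearly whole by copies on chromosome 1, and mt-Atp8 had few reads. mt-Co1 of complex IV, matched there in part, stood at -1.83. A gene was called where limma gave an adjusted p (Benjamini-Hochberg) under 0.05. This held for 24.9% of the 13885 naive genes, 12.9% higher and 11.9% lower, with a median log2 difference of -0.01 over all of them. Without naive cKO replicate 1 or 2 the number of genes called was 2266 or 2261 instead of 3454, and 12 mitochondrial mRNAs were still called lower. Scaling to library totals moved the median naive gene by 0.12 log2 and changed no mRNA call in naive cells. In memory cells it ended the calls of mt-Atp8, mt-Co2 and mt-Nd4l, with adjusted p of 0.052, 0.053 and 0.052.

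**Figure D2:**
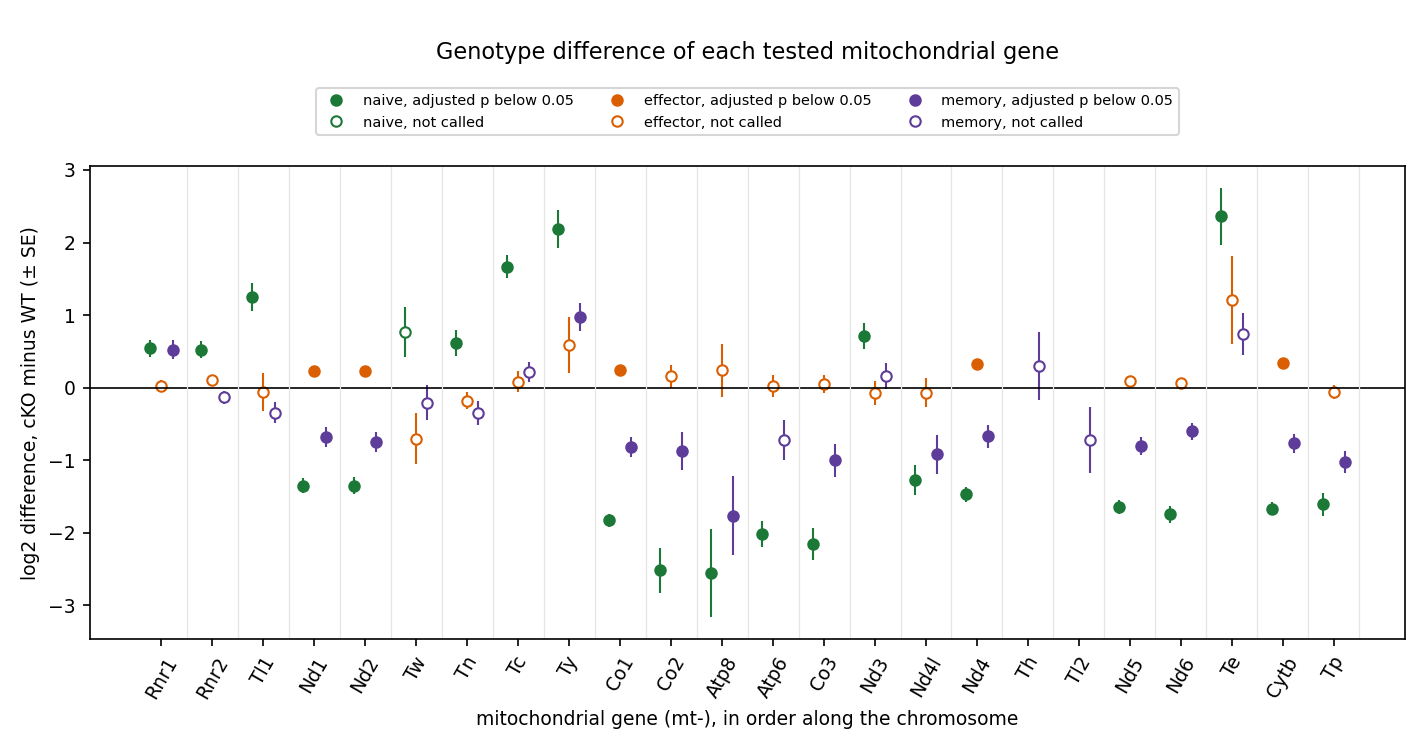
Log2 difference of cKO minus WT (± SE, limma) for each mitochondrial gene that was tested, in order along the chromosome, in naive, effector and memory cells; 1 unit is a doubling. Naive mRNAs lie between -2.56 and -1.27 except mt-Nd3 at 0.71, effector mRNAs between -0.07 and 0.34, and memory mRNAs between -1.76 and 0.16.

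Complex I takes electrons from NADH and pumps protons, and 7 of its subunits are encoded on the mitochondrial chromosome. In naive cells 6 of these 7 mRNAs fell and 1 rose. mt-Nd1 (ENSMUSG00000064341, chrMT:2751-3707), which lines the site where ubiquinone binds, had 12856, 14069 and 11132 normalised reads in the naive libraries labelled cKO, against 35249, 28085 and 33827 in WT. Every library labelled cKO lay below every WT library, and the log2 difference was -1.35 (SE 0.10, adjusted p = 2.9e-06). mt-Nd2 (ENSMUSG00000064345, chrMT:3914-4951), an antiporter-like subunit of the proton-pumping arm, had 10083, 10290.5 and 8068 normalised reads in the naive libraries labelled cKO, against 26107, 20033 and 26463 in WT, with no overlap. The other antiporter-like subunits are mt-Nd4 (ENSMUSG00000064363, chrMT:10167-11544) and mt-Nd5 (ENSMUSG00000064367, chrMT:11742-13565). mt-Nd4 had 8714, 9179 and 7622 normalised reads in the naive libraries labelled cKO, against 25114, 19842 and 25897 in WT. mt-Nd5 had 11086, 11368 and 9593 normalised reads in the naive libraries labelled cKO, against 34905, 28523 and 37069 in WT. Both were lower in each library labelled cKO, and the log2 differences were -1.35 (SE 0.12) for mt-Nd2, -1.47 (SE 0.10) for mt-Nd4 and -1.64 (SE 0.10) for mt-Nd5. mt-Nd6 (ENSMUSG00000064368, chrMT:13552-14070), the mRNA read from the other strand, had 2759, 2596 and 2199 normalised reads in the naive libraries labelled cKO, against 8774, 6965 and 9748 in WT, a difference of -1.75 (SE 0.12, adjusted p = 1.1e-06). It overlaps mt-Nd5 by 14 bases on the opposite strand, and reads of the 2 strands cannot be told apart since the strand setting of the counting is not given in the sources used here. The small membrane subunit mt-Nd4l (ENSMUSG00000065947, chrMT:9877-10173) had 43.0, 72.9 and 67.2 normalised reads in the naive libraries labelled cKO, against 145, 155 and 135 in WT, a difference of -1.27 (SE 0.20, adjusted p = 9.6e-04). mt-Nd4l shares 7 bases with mt-Nd4 and 294 of its 297 bases with Gm10222 of chromosome 1, and its groups also stood apart.

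mt-Nd3 (ENSMUSG00000064360, chrMT:9459-9806), a complex I subunit with a loop that reaches the ubiquinone site, was the mRNA that ran the other way. It had 252, 286 and 171 normalised reads in the naive libraries labelled cKO, against 147, 136 and 139.5 in WT. All 3 libraries labelled cKO lay above all 3 WT libraries, with a log2 difference of 0.71 (SE 0.17, adjusted p = 0.012). The call was lost without cKO replicate 1 (0.65, adjusted p = 0.055) or cKO replicate 2 (0.56, adjusted p = 0.063). The near-identical Gm28438 fell in the same libraries, with 14.6, 13.6 and 11.0 normalised reads in the naive libraries labelled cKO, against 70.6, 42.4 and 46.9 in WT (log2 difference -1.92, adjusted p = 6.6e-04). mt-Nd3 did not pass the test in effector cells (149, 95.4 and 141 in libraries labelled cKO, against 126, 124 and 150.2 in WT) or in memory cells (252, 157 and 168, against 173, 149 and 184), where the groups overlapped.

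In memory cells 6 of the 7 complex I mRNAs fell, with a median log2 difference of -0.68, and mt-Nd3 was not called. mt-Nd1 had 33408, 25455 and 22375 normalised reads in the memory libraries labelled cKO, against 40827, 43899 and 43645 in WT, again with no overlap (-0.68, SE 0.13, adjusted p = 0.0036). mt-Nd2 averaged 18142 ± 4155 normalised reads in the libraries labelled cKO and 29920.2 ± 1817 in WT (SD, n = 3 each), a log2 difference of -0.74. mt-Nd4 averaged 17114 ± 4758 normalised reads in the libraries labelled cKO and 26604 ± 673 in WT (-0.67). These antiporter-like subunits and mt-Nd5, with 19203 ± 3545 normalised reads in the libraries labelled cKO and 32999.6 ± 236 in WT (-0.80), all fell, and no groups overlapped. mt-Nd6 averaged 5086 ± 939 normalised reads in the libraries labelled cKO and 7675 ± 837 in WT (-0.60, SE 0.12, adjusted p = 0.0044). mt-Nd4l had 94.4, 64.4 and 83.4 normalised reads in the memory libraries labelled cKO, against 198, 92.4 and 189 in WT. Its groups overlapped at WT replicate 2, and its call (-0.92, SE 0.27, adjusted p = 0.033) was lost without any one of WT replicates 1 and 3 and cKO replicates 2 and 3 (adjusted p = 0.14, 0.15, 0.11 and 0.08 in that order). In effector cells 3 of the 7 rose by small amounts. mt-Nd1 had 29384, 27906 and 29986 normalised reads in the effector libraries labelled cKO, against 25369, 23896 and 25314 in WT, a difference of 0.23 (SE 0.03, adjusted p = 9.4e-05). mt-Nd2 averaged 16690.4 ± 224 normalised reads in the libraries labelled cKO and 14180.3 ± 677 in WT, and mt-Nd4 20663 ± 736 normalised reads in the libraries labelled cKO and 16518 ± 974 in WT. Their differences were 0.24 (SE 0.04) and 0.32 (SE 0.04), with all libraries labelled cKO above all WT libraries. mt-Nd5 averaged 25947 ± 423 normalised reads in the libraries labelled cKO and 24452 ± 447 in WT (0.09, SE 0.03, adjusted p = 0.051), also without overlap but short of the threshold. mt-Nd6 (0.06, SE 0.04, adjusted p = 0.28) and mt-Nd4l (-0.07, SE 0.20, adjusted p = 0.86) were not called either.

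Complex III passes electrons from ubiquinol to cytochrome c, and its mitochondrially encoded subunit is cytochrome b, which carries the haem groups of the membrane. mt-Cytb (ENSMUSG00000064370, chrMT:14145-15288) fell in naive and memory cells and rose in effector cells. It had 14329, 15638 and 13471 normalised reads in the naive libraries labelled cKO, against 49551, 39864 and 49164 in WT. The memory values were 34868, 27573 and 24492 in libraries labelled cKO, against 46362, 52719.5 and 47614 in WT. In effector cells mt-Cytb had 43471, 44884 and 45978 normalised reads in the effector libraries labelled cKO, against 35698, 34468 and 36226 in WT. The groups were separate in every subset, below WT in naive and memory cells and above it in effector cells. The log2 differences were -1.67 (SE 0.09, adjusted p = 2.5e-07) in naive, 0.34 (SE 0.03, adjusted p = 2.7e-07) in effector and -0.77 (SE 0.13, adjusted p = 0.0012) in memory cells. No copy of mt-Cytb was found among annotated nuclear transcripts at 95% identity over 50 bases.

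Complex IV reduces oxygen, and its 3 catalytic core subunits are mitochondrial. All 3 mRNAs fell in naive and in memory cells. mt-Co1 (ENSMUSG00000064351, chrMT:5328-6872), which holds the site where oxygen is reduced, had 50078, 51046 and 43912 normalised reads in the naive libraries labelled cKO, against 178609, 155173 and 181239.9 in WT. mt-Co2 (ENSMUSG00000064354, chrMT:7013-7696), which receives the electrons of cytochrome c, had 92.1, 288 and 221 normalised reads in the naive libraries labelled cKO, against 1148, 929.6 and 1042 in WT. mt-Co3 (ENSMUSG00000064358, chrMT:8607-9390), which stabilises the core, had 132, 259.5 and 217 normalised reads in the naive libraries labelled cKO, against 1132, 760.0 and 776 in WT. Each library labelled cKO was below each WT library for all 3, and mt-Co2 ranged widely among the libraries labelled cKO. The differences were -1.83 (SE 0.09, adjusted p = 8.3e-08) for mt-Co1, -2.52 (SE 0.31, adjusted p = 1.4e-04) for mt-Co2 and -2.16 (SE 0.22, adjusted p = 3.6e-05) for mt-Co3. In memory cells mt-Co1 had 123495, 102584 and 94855 normalised reads in the memory libraries labelled cKO, against 182047, 197854 and 183343 in WT (-0.82, SE 0.14, adjusted p = 0.0014), with no overlap. mt-Co3 had 639, 285 and 413 normalised reads in the memory libraries labelled cKO, against 843, 726 and 998 in WT (-1.004, SE 0.23, adjusted p = 0.0083), also apart. The authors' deposited table does not call mt-Co3 in memory cells (adjusted p = 0.059). mt-Co2 had 726, 294 and 538 normalised reads in the memory libraries labelled cKO, against 958, 706 and 1050.0 in WT, so that its groups overlapped. The memory call of mt-Co2 (-0.87, SE 0.26, adjusted p = 0.034) was lost without any one of WT replicates 1 and 3 and cKO replicates 2 and 3 (adjusted p of 0.067 to 0.14), where the difference without cKO replicate 2 was -0.51. It was also lost with DESeq2 (adjusted p = 0.17), with library totals (0.053), with library totals taken without the mitochondrial genes (0.0503) and in a single fit of all 18 libraries (0.054). In effector cells mt-Co1 had 172591, 179874 and 187799.8 normalised reads in the effector libraries labelled cKO, against 156240.4, 145582 and 153108 in WT, a rise of 0.25 (SE 0.03, adjusted p = 3.0e-05). mt-Co2 had 1131, 668 and 1401 normalised reads in the effector libraries labelled cKO, against 868, 908 and 969 in WT, and mt-Co3 759, 488 and 772 against 660.4, 567 and 682. Both overlapped and were not called, at 0.16 (SE 0.16) and 0.05 (SE 0.13).

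Complex V makes ATP, and its mitochondrially encoded subunits are mt-Atp6, which forms the proton path, and mt-Atp8, a small membrane subunit. Both fell in naive cells. mt-Atp6 (ENSMUSG00000064357, chrMT:7927-8607) had 165, 297 and 254 normalised reads in the naive libraries labelled cKO, against 1043, 969 and 836 in WT, a difference of -2.02 (SE 0.18, adjusted p = 1.1e-05). mt-Atp8 (ENSMUSG00000064356, chrMT:7766-7969) had 0.861, 11.7 and 4.01 normalised reads in the naive libraries labelled cKO, against 35.8, 21.2 and 28.3 in WT. Its groups were apart, at -2.56 (SE 0.61, adjusted p = 0.011), but its counts were the lowest of the 13 mRNAs, and 43 of its 204 bases are shared with mt-Atp6. In memory cells mt-Atp6 had 766, 363 and 492 normalised reads in the memory libraries labelled cKO, against 1034, 550.1 and 1090.3 in WT, which overlapped and was not called (-0.73, SE 0.27, adjusted p = 0.088). mt-Atp8 had 22.4, 10.6 and 8.43 normalised reads in the memory libraries labelled cKO, against 26.8, 28.4 and 121 in WT. WT replicate 3 stood far above every other memory library for mt-Atp8. The difference was -1.76 (SE 0.55, adjusted p = 0.042) with it and -1.06 (adjusted p = 0.18) without it, and the call was also lost without cKO replicate 2 (-1.64, adjusted p = 0.10) or cKO replicate 3 (-1.50, adjusted p = 0.14), or with library totals taken without the mitochondrial genes (adjusted p = 0.0503). In effector cells neither was called, with 953, 475 and 777 normalised reads of mt-Atp6 in libraries labelled cKO, against 665, 699 and 729 in WT, and 14.2, 24.5 and 40.5 of mt-Atp8, against 23.9, 16.6 and 21.3.

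**Figure D3:**
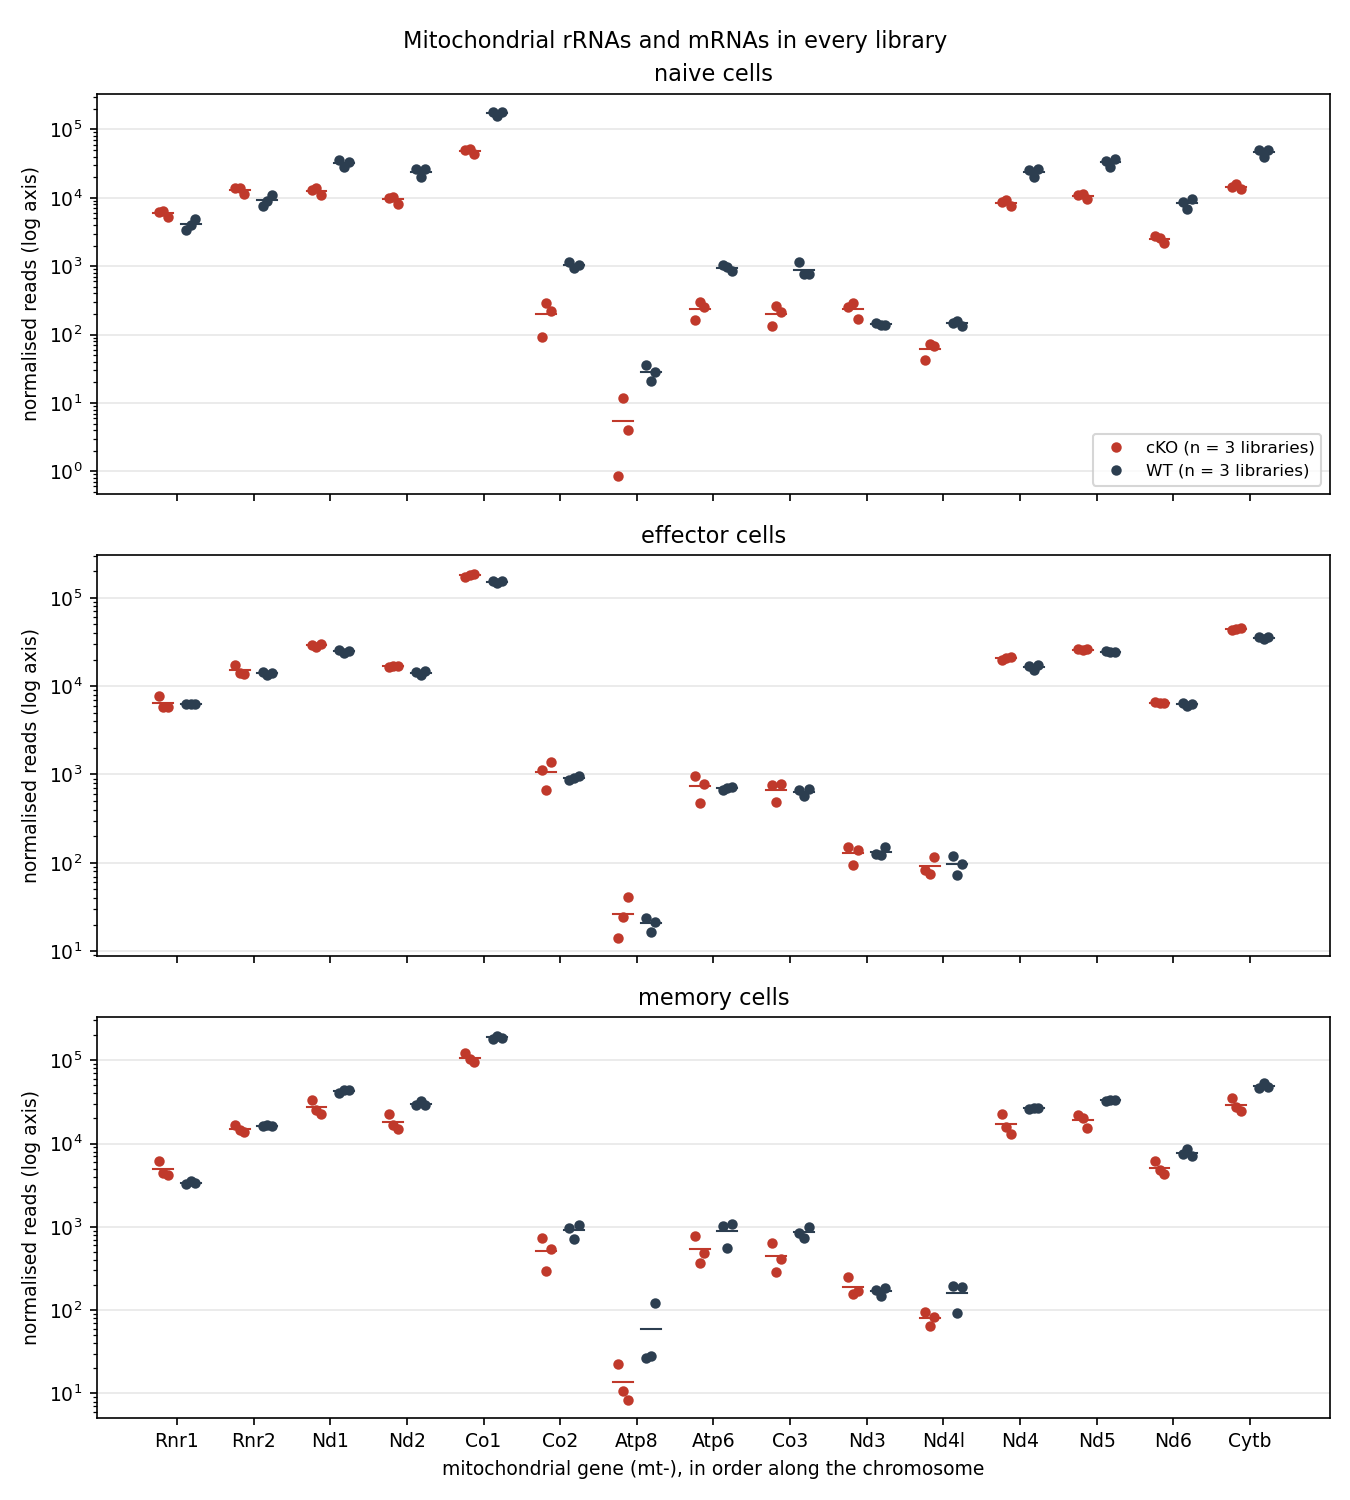
Normalised reads of the 2 rRNAs and 13 mRNAs in every library on a log axis, in order along the chromosome, for naive, effector and memory cells (dots are libraries, short lines are group means, n = 3 per genotype label). In naive cells libraries labelled cKO lie below WT for 12 mRNAs and above WT for mt-Nd3 and both rRNAs.

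Counted over the 13 mRNAs, effector cells had 5 higher (mt-Nd1, mt-Nd2, mt-Nd4, mt-Cytb and mt-Co1) and 0 lower, where 20.1% of the 13815 genes tested were called, 10.7% higher and 9.37% lower. edgeR and DESeq2 also called 0 lower, and none was lower at an unadjusted p under 0.05. Without effector cKO replicate 2, limma called 8 higher. The median log2 difference of the 13 was 0.16, beside -0.01 over all genes. In a single fit of all 18 libraries only mt-Cytb was called, while the other 4 had adjusted p of 0.12 to 0.26. Memory cells had 0 higher and 11 lower, with a median of -0.77 beside -0.02, where 19.1% of the 14622 genes tested were called, 12.1% higher and 7.00% lower. None was higher there at an unadjusted p under 0.05, and edgeR and DESeq2 called 0 higher too. The effector groups did not overlap for 6 mRNAs, all above WT, where 17.9% of the genes tested had each library labelled cKO above WT. The memory groups did not overlap for 9, all below WT, where 16.8% of the genes tested had each library labelled cKO below WT. The number of genes called in memory cells was 1839 instead of 2793 without WT replicate 3. The authors' deposited table, which gives WT over cKO, calls 12 mRNAs lower and 1 higher in cKO for naive cells, 6 higher for effector cells and 9 lower for memory cells at an adjusted p under 0.05. For memory cells it does not call mt-Co2 (adjusted p = 0.20) or mt-Co3 (adjusted p = 0.059), which limma called lower.

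The rRNAs of the mitochondrial ribosome, mt-Rnr1 of the small and mt-Rnr2 of the large subunit, rose in naive cells while most mRNAs fell. mt-Rnr1 (ENSMUSG00000064337, chrMT:70-1024) had 6217, 6334 and 5238 normalised reads in the naive libraries labelled cKO, against 3349.6, 4057 and 4904 in WT. mt-Rnr2 (ENSMUSG00000064339, chrMT:1094-2675) had 13682, 14109 and 11525 normalised reads in the naive libraries labelled cKO, against 7583, 9039 and 10939 in WT. The libraries labelled cKO were above WT for both, by 0.54 (SE 0.12, adjusted p = 0.007) and 0.52 (SE 0.12, adjusted p = 0.008). In memory cells the rRNAs parted. mt-Rnr1 had 6255, 4375 and 4221 normalised reads in the memory libraries labelled cKO, against 3228, 3593 and 3337 in WT, a rise of 0.53 (SE 0.13, adjusted p = 0.013) that was lost without WT replicate 1 or 3 (adjusted p = 0.058 and 0.056). mt-Rnr2 had 16654, 14575 and 13597 normalised reads in the memory libraries labelled cKO, against 16116, 16682 and 16149 in WT, which overlapped (-0.13, SE 0.09, adjusted p = 0.35). In effector cells neither was called, at 0.03 (SE 0.07) and 0.10 (SE 0.06), and the groups overlapped. Without effector cKO replicate 1, limma called mt-Rnr1 lower there (-0.115, SE 0.035, adjusted p = 0.029). Poly-A selection is meant to leave rRNA out, and what share of mitochondrial rRNA each library kept was not tested.

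tRNA genes held few reads, and their mature products are short and lack a poly-A tail, so which RNA form gave these reads was not tested. In naive cells 7 of the 18 tRNA genes were tested, and 11 stayed under the filter at 0 to 16.4 normalised reads. Among the 7 tested, the minus-strand genes whose sequences are given above had the largest rises. mt-Te had 86.9, 100.1 and 42.2 normalised reads in the naive libraries labelled cKO, against 21.1, 8.07 and 13.1 in WT (2.36, SE 0.39, adjusted p = 0.0012). mt-Ty had 104, 91.4 and 66.2 normalised reads in the naive libraries labelled cKO, against 21.1, 14.1 and 19.6 in WT (2.19, SE 0.26, adjusted p = 1.1e-04). mt-Tc had 240.1, 259.5 and 185 normalised reads in the naive libraries labelled cKO, against 70.6, 64.6 and 76.3 in WT (1.67, SE 0.16, adjusted p = 2.4e-05). None of these groups overlapped, and 2 further genes rose. Under the filter, mt-Tm, the methionine tRNA, had 15.5, 15.6 and 3.01 normalised reads in the naive libraries labelled cKO, against 0, 0 and 1.09 in WT. mt-Tq, the glutamine tRNA, had 16.4, 9.72 and 12.0 normalised reads in the naive libraries labelled cKO, against 1.05, 0 and 2.18 in WT, and mt-Ti, the isoleucine tRNA, 4.30, 4.86 and 5.02 against 0, 0 and 0. The groups of these 3 were apart too, and the authors' deposited table calls mt-Tm (adjusted p = 0.0075) and mt-Tq (adjusted p = 0.010) higher in cKO. These 3 were named after their values were seen. Groups overlapped for 8 of the 18 tRNA genes, all under the filter. Among them mt-Th, mt-Tr, mt-Ts2 and mt-Tt had lower means in libraries labelled cKO, as with mt-Ts2 at 0.611 against 5.11 normalised reads. How many of all naive genes had groups apart was not counted. mt-Tl1, the leucine tRNA just after mt-Rnr2, had 117, 144 and 93.3 normalised reads in the naive libraries labelled cKO, against 52.7, 45.4 and 46.9 in WT (1.25, SE 0.20, adjusted p = 8.3e-04). mt-Tn, the asparagine tRNA, had 139, 155 and 108 normalised reads in the naive libraries labelled cKO, against 90.7, 72.7 and 97.0 in WT (0.62, SE 0.18, adjusted p = 0.029), a call lost without any one of WT replicates 1 and 2 and cKO replicates 1 and 2 (adjusted p of 0.052 to 0.13). The proline tRNA mt-Tp went the other way. It had 78.3, 112 and 83.3 normalised reads in the naive libraries labelled cKO, against 271, 253 and 307 in WT (-1.61, SE 0.16, adjusted p = 2.6e-05), and its groups did not overlap. mt-Tw, the tryptophan tRNA, had 25.8, 15.6 and 24.1 against 10.5, 11.1 and 15.3 and was not called (adjusted p = 0.14), although its groups were apart. In memory cells 9 tRNA genes were tested and 9 stayed at 0 to 16.6 normalised reads. mt-Ty had 84.7, 103 and 84.3 normalised reads in the memory libraries labelled cKO, against 50.2, 45.7 and 41.3 in WT, a rise of 0.97 (SE 0.19, adjusted p = 0.0038). mt-Tp had 247, 201 and 164 normalised reads in the memory libraries labelled cKO, against 409, 461 and 363 in WT, a difference of -1.02 (SE 0.15, adjusted p = 5.2e-04). The groups of both were apart, and the other 7 were not called: mt-Tl1, mt-Tw, mt-Tn, mt-Tc, mt-Te, mt-Th and mt-Tl2, with log2 differences from -0.72 to 0.74. In effector cells 0 of the 7 tested were called by limma, 0 at an unadjusted p under 0.05 and 0 in the authors' deposited table, with log2 differences from -0.70 for mt-Tw to 1.21 for mt-Te, and 10 stayed at 0 to 14.5 normalised reads.

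**Figure D4:**
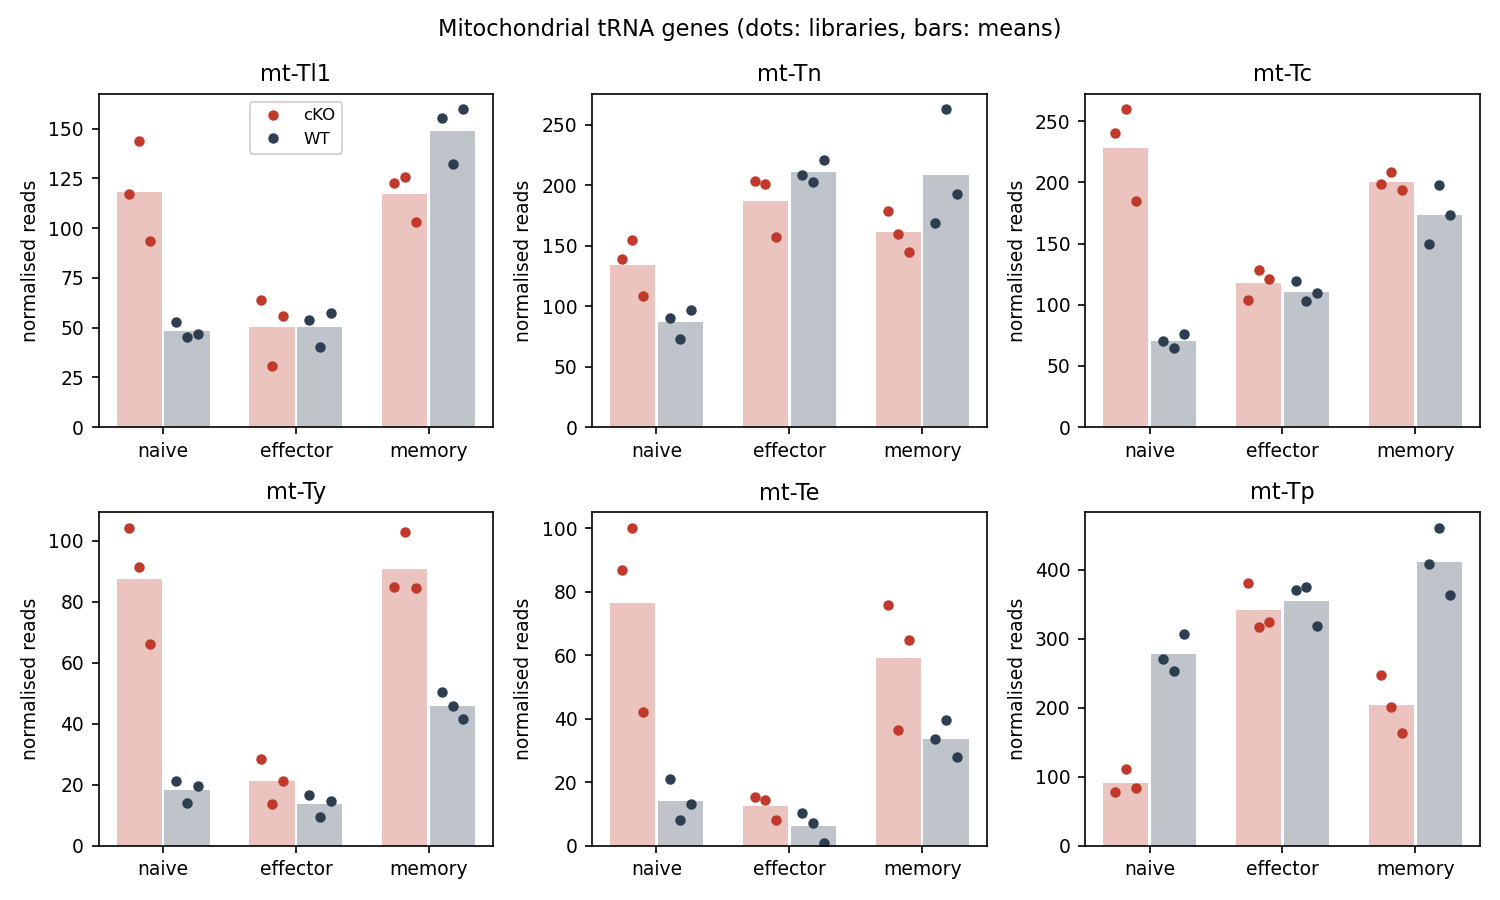
Normalised reads of the mitochondrial tRNA genes mt-Tl1, mt-Tn, mt-Tc, mt-Ty, mt-Te and mt-Tp in every library (dots) with group means (bars), libraries labelled cKO to the left of WT. mt-Tc, mt-Ty, mt-Te and mt-Tl1 stand higher in naive libraries labelled cKO, and mt-Tp lower.

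The share of each mRNA among the 13 shows whether they kept their proportions within a library. In naive cells 6 of the 13 shares did not overlap between the genotype labels, which is a description with no test. mt-Co1 took 44.9 ± 0.612% of the mRNA reads in libraries labelled cKO and 50.1 ± 1.195% in WT, and mt-Co2 0.187 ± 0.0903% and 0.303 ± 0.0169% (SD, n = 3 each). mt-Nd1 took 11.8 ± 0.374% and 9.43 ± 0.271%, mt-Nd2 8.79 ± 0.413% and 7.03 ± 0.331%, and mt-Nd4 7.90 ± 0.0485% and 6.86 ± 0.252%. These complex I mRNAs thus took a larger share in libraries labelled cKO, and so did mt-Nd3, at 0.217 ± 0.0370% against 0.0413 ± 0.00362%. In effector cells mt-Nd4 and mt-Cytb took a larger share and mt-Nd5 and mt-Nd6 a smaller share in each library labelled cKO than in WT. In memory cells the shares of mt-Nd1, mt-Nd3 and mt-Nd6 stood above WT, and the other 10 overlapped. The order of levels per length, in reads scaled to gene length and library total (RPKM), was led by mt-Co1 in all 6 groups. Its mean was 2015 RPKM in naive cKO and 6593 in naive WT libraries, 7267 and 6143 in effector cells, and 4388 and 7312 in memory cells. Next came mt-Nd1 and mt-Cytb, which overlapped each other in naive cells of both labels, followed by mt-Nd2. mt-Nd4 and mt-Nd5, which overlapped in naive cells of both labels, and mt-Nd6 came after it. mt-Nd5 also overlapped mt-Nd6 in naive libraries labelled cKO, and mt-Nd1 overlapped mt-Cytb in memory WT. In naive and effector WT mt-Nd2 overlapped mt-Nd5, and mt-Nd4 overlapped mt-Nd6. In memory libraries labelled cKO each mRNA from mt-Nd1 down to mt-Nd5 overlapped the next, so the order there is not separated. A gap separated these 7 from the other 6: in naive libraries labelled cKO the lowest of the 7, mt-Nd6, had 312 RPKM and the next, mt-Nd3, 43.7. In naive WT mt-Nd6 had 971 RPKM and the next, mt-Co2, 90.2. mt-Nd3 ranked 8 in naive libraries labelled cKO and 12 in naive WT (24.0 RPKM), and mt-Atp8 was last in both, at 1.74 and 8.28 RPKM. mt-Co2, mt-Co3, mt-Atp6, mt-Nd3 and mt-Nd4l, all in the lower set, are the mRNAs matched nearly whole by copies on chromosome 1.

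Those copies, parts of a run of mitochondrial sequence on chromosome 1, and others on chromosomes 2 and 13 bear on how far the values of some mRNAs can be read. At 95% identity or more over at least 50 bases, 9 of the 13 mRNAs matched a nuclear transcript. mt-Atp6, mt-Co2, mt-Co3 and mt-Nd4l matched theirs at 100% identity over nearly their whole length, mt-Nd4 over 876 of 1378 bases, and mt-Co1 matched Gm29216 over 483 of 1545 bases at 99.79%. Gm13340 on chromosome 2 matched all 1545 bases of mt-Co1 at 97.61%. mt-Nd2 matched Gm13339 on chromosome 2 over 510 of 1038 bases at 96.67%, and mt-Nd5 matched Gm4076 on chromosome 13 over 954 of 1824 bases at 95.18%. How reads that fit both places were counted is not given in the sources used here, so their split is uncertain. Gm28661 had 144, 207 and 169 normalised reads in the naive libraries labelled cKO, against 1034, 837 and 849 in WT. Gm10925 had 264, 406 and 371 normalised reads in the naive libraries labelled cKO, against 1526, 1359 and 1423 in WT. Both stood apart from WT, at -2.39 and -2.07 on the log2 scale, beside -2.52 for mt-Co2 and -2.02 for mt-Atp6. Of 7 listed copies tested, 6 on chromosome 1 fell in naive cells (Gm28661, Gm10925, Gm28437, Gm28438, Gm28439 and Gm29216), where 11.9% of genes were called lower. Gm13340 was not called, at -1.14. Gm10222, the chromosome 1 copy of mt-Nd4l, was not on the list of copies, so no test of it is given. It had 43.9, 71.9 and 58.2 normalised reads in the naive libraries labelled cKO, against 183, 112 and 171 in WT. Gm28438, the copy of mt-Nd3, had a difference of -1.92, while mt-Nd3 itself rose. In effector cells 0 of 7 were called by limma or in the authors' deposited table, and 1 was higher at an unadjusted p under 0.05. In memory cells 4 of 7 fell, where 7.00% of genes were called lower. For 6 mRNAs (mt-Nd1, mt-Nd2, mt-Nd5, mt-Nd6, mt-Cytb and mt-Atp8) no chromosome 1 transcript matched over at least 50 bases. They fell in naive and in memory cells, with medians of -1.66 and -0.76, and 3 of them rose in effector cells. mt-Nd2 and mt-Nd5 among them have the matches on chromosomes 2 and 13. The last 43 bases of mt-Atp8, too short for that search, are also the first bases of Gm10925. Adding the reads of 8 listed copies, without Gm10222, Gm13339 and Gm4076, left the naive share lower in each library labelled cKO. It was 0.850, 0.889 and 0.743%, against 2.25, 1.89 and 2.29% in WT.

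Whether the genotype effect differed between subsets was tested as an interaction over all 18 libraries. The effect in effector cells was higher than in naive cells for 12 of 13 mRNAs, where 18.5% of 15694 genes were called, 8.81% higher and 9.69% lower. It was largest for mt-Atp8, at 2.80 (SE 0.83, adjusted p = 0.022), mt-Co2, at 2.67 (SE 0.45, adjusted p = 1.5e-04), and mt-Co3, at 2.21 (SE 0.34, adjusted p = 5.9e-05). mt-Nd3 went the other way and missed the threshold, at -0.78 (SE 0.28, adjusted p = 0.053). The call of mt-Atp8 was lost without naive WT replicate 1, naive cKO replicate 1 or effector cKO replicate 3 (adjusted p of 0.050 to 0.071), and that of mt-Nd4l without naive cKO replicate 1, effector WT replicate 2 or effector cKO replicate 3 (adjusted p of 0.075 to 0.082). Between memory and naive cells the effect was higher for 10 of 13 mRNAs, where 16.9% of genes were called, 7.89% higher and 9.00% lower. mt-Nd6 differed by 1.14 (SE 0.16, adjusted p = 3.4e-05) and mt-Co1 by 1.01 (SE 0.14, adjusted p = 1.9e-05), while mt-Nd3, mt-Nd4l and mt-Atp8 were not called. The calls of mt-Co3 and mt-Atp6 were lost without naive cKO replicate 1 (adjusted p = 0.083 and 0.068), memory WT replicate 2 (0.057 and 0.059) or memory cKO replicate 1 (0.072 and 0.058), and that of mt-Co3 also without naive WT replicate 1 (0.068). Between memory and effector cells the effect was lower for 7 of 13 mRNAs, where 8.71% of genes were called, 4.75% higher and 3.96% lower. These were mt-Nd1, mt-Nd2, mt-Nd4, mt-Nd5, mt-Nd6, mt-Cytb and mt-Co1, at -1.10 (mt-Cytb) to -0.67 (mt-Nd6). The rRNAs behaved apart: for mt-Rnr2 the effect in memory cells minus that in naive cells was -0.65 (SE 0.15, adjusted p = 0.0052), and limma called no difference of effects for mt-Rnr1. At an unadjusted p under 0.05 both rRNAs were lower for effector minus naive effects, and mt-Rnr1 was higher for memory minus effector effects. These 3 differences share libraries with each other and with the effects above. In those against naive cells, the sex-linked difference of the naive libraries and the genotype cannot be told apart.

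Levels of the same mRNA in different subsets were compared on whole reads with edgeR's quasi-likelihood test. Naive libraries labelled cKO held reads of the Y-linked Ddx3y, Eif2s3y, Kdm5d and Uty, and naive WT held none. These genes were not listed for effector or memory cells of either label. In the steps from naive cells in libraries labelled cKO, this difference and the subset cannot be told apart, and its part was not tested. In libraries labelled cKO, 12 of the 13 mRNAs were higher in effector than in naive cells and mt-Nd3 was lower (68.4% of 15659 genes were called, 33.8% higher and 34.6% lower), with a median log2 difference of 1.50. mt-Co1 rose by 2.03 (SE 0.09, edgeR adjusted p = 5.4e-16) and mt-Cytb by 1.76 (SE 0.11), and the log2 difference of mt-Nd3 was -0.75 (SE 0.19). mt-Nd4l, at 0.73, lost its call without naive cKO replicate 1 or effector cKO replicate 3. In WT the same step showed 0 higher and 4 lower (67.0% of genes called, 33.9% higher and 33.1% lower), with a median of -0.29. The 4 were complex I mRNAs: mt-Nd2, at -0.61, mt-Nd4, at -0.35, mt-Nd5, at -0.29, and mt-Nd6, at -0.29. limma with voom and DESeq2 also called 0 higher, and none was higher at an unadjusted p under 0.05. mt-Nd4, mt-Nd5 and mt-Nd6 lost their calls without naive WT replicate 1 or 3 or effector WT replicate 2, which left mt-Nd2 alone, and mt-Nd6 also without effector WT replicate 3. The call of mt-Nd4 was also lost with DESeq2 (adjusted p = 0.061). From naive to memory cells, 10 mRNAs were higher in libraries labelled cKO (42.4% of genes called, 21.7% higher and 20.6% lower, median 1.07) and 2 in WT (37.1% called, 19.9% higher and 17.1% lower, median 0.18), mt-Nd1, at 0.45, and mt-Nd2, at 0.36. The WT call of mt-Nd2 was lost without naive WT replicate 2 (0.24, adjusted p = 0.16) or memory WT replicate 2 (0.33, adjusted p = 0.074). Between memory and effector cells, 7 mRNAs were lower and 1, mt-Nd3, higher in libraries labelled cKO (58.5% of genes called, 28.6% lower and 29.9% higher, median -0.52), while 7 were higher and 0 lower in WT (61.2% called, 30.7% higher and 30.6% lower, median 0.32), where 0 were lower with voom, DESeq2 or at an unadjusted p under 0.05. The 7 in WT were mt-Nd1, mt-Nd2, mt-Nd4, mt-Nd4l, mt-Nd5, mt-Cytb and mt-Atp8. mt-Atp8, at 1.41, had a difference of 0.33 (adjusted p = 0.61) without memory WT replicate 3 and also lost its call without effector WT replicate 2 or 3, with voom (adjusted p = 0.082) and with DESeq2 (0.068). mt-Nd4l, at 0.61, lost its call without any one of effector WT replicates 2 and 3 and memory WT replicates 1 and 3, and with voom (adjusted p = 0.056). The 7 in libraries labelled cKO were mt-Nd4, mt-Nd5, mt-Nd6, mt-Cytb, mt-Co1, mt-Co2 and mt-Co3. Of these mt-Nd4 lost its call without any one of effector cKO replicates 2 and 3 and memory cKO replicates 2 and 3, and mt-Co3 without any one of effector cKO replicates 1 and 3 and memory cKO replicates 2 and 3. mt-Nd3, at 0.50, lost its call without effector cKO replicate 2 or memory cKO replicate 1. mt-Nd1 shows the contrast: memory against effector it was -0.19 (SE 0.11, adjusted p = 0.16) in libraries labelled cKO and 0.67 (SE 0.11, adjusted p = 1.2e-05) in WT. The rRNAs rose in WT from naive to effector cells, mt-Rnr1 by 0.78 and mt-Rnr2 by 0.77. In libraries labelled cKO the differences were 0.26 (SE 0.14), not called, and 0.34 (SE 0.11), a call lost without effector cKO replicate 1 and with library totals. Of 11 tRNA genes tested from naive to effector cells, 2 were higher and 6 lower in libraries labelled cKO, and 5 were higher and 0 lower in WT, where none was lower at an unadjusted p under 0.05.

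**Figure D5:**
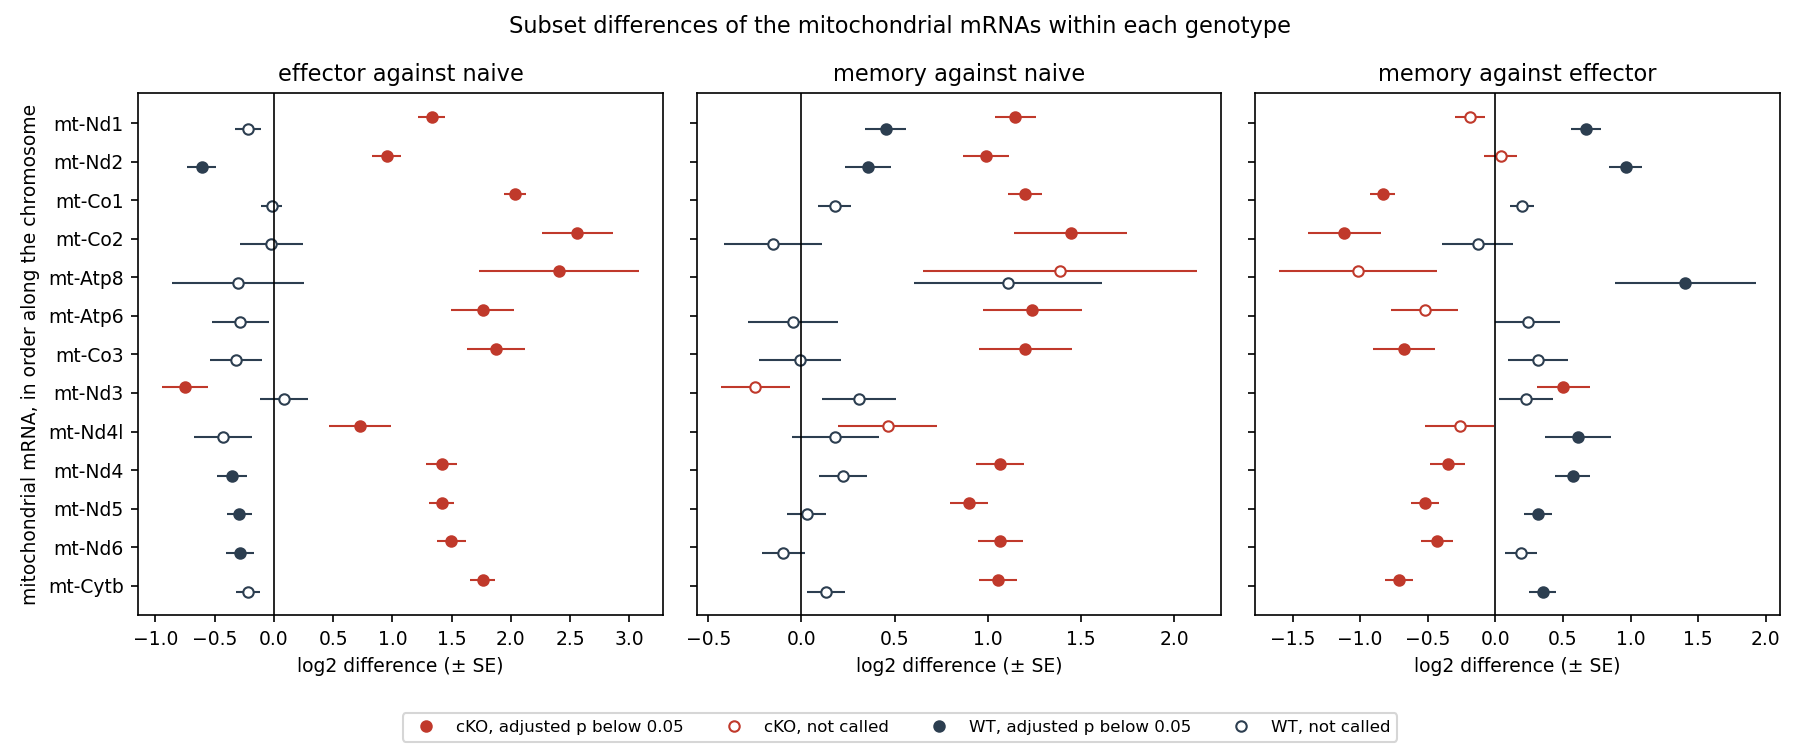
Log2 differences (± SE, edgeR) of the 13 mRNAs for effector or memory minus naive cells and for memory minus effector cells, in libraries labelled cKO and in WT. The medians for effector minus naive are 1.50 in libraries labelled cKO and -0.29 in WT.

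The nuclear subunits of these complexes, and of complex II, which has no mitochondrially encoded subunit, were tested in the same fits. In naive cells, nuclear subunits fell for 6 of 37 in complex I, 1 of 4 in complex II, 4 of 9 in complex III, 4 of 13 in complex IV and 6 of 15 in complex V, and 1 rose, in complex IV. The medians were -0.23 for complex I, -0.29 for complex III, -0.24 for complex IV and -0.29 for complex V. Over all genes tested in naive cells 11.9% were called lower, with a median of -0.01. Ndufb7, a subunit of complex I, had a log2 difference of -0.47 (adjusted p = 0.004). Uqcrh, the hinge protein of complex III, fell by 0.78 and Uqcrb by 0.56 on the log2 scale. Cox4i1, of complex IV, fell by 0.46, and Atp5h and Atp5d, of complex V, by 0.52 and 0.41. The complex IV gene that rose was Cox6a2, the subunit form known from heart and skeletal muscle. It had 599, 518 and 519 normalised reads in the naive libraries labelled cKO, against 2.11, 2.02 and 2.18 in WT. In memory cells Cox6a2 had 646, 522 and 464 against 8.93, 15.2 and 9.61, and in effector cells 13.2, 14.5 and 17.2 against 11.4, 10.4 and 6.78. Its naive and memory groups were far apart, at 7.46 (adjusted p = 2.0e-09) and 5.50 (adjusted p = 1.7e-08) on the log2 scale. In effector cells 3 of 37 complex I subunits, 1 of 9 of complex III and 2 of 13 of complex IV fell, where 9.37% of genes were called lower, and Atp5g1, which encodes a subunit of the membrane ring of complex V, rose by 0.25 (adjusted p = 0.031). In memory cells 1 of 37 complex I subunits and 1 of 15 of complex V fell, where 7.00% of genes were called lower, and no nuclear subunit but Cox6a2 rose.

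Factors that copy, transcribe and process mitochondrial nucleic acid were mostly not called. Of 13 genes of mitochondrial DNA replication and the nucleoid, 4 rose and 1 fell in naive cells, among them Dna2, a nuclease and helicase, at 1.199 (adjusted p = 0.0081), and Polg2, the accessory subunit of the mitochondrial DNA polymerase, at 0.54 (adjusted p = 0.0015). Of 8 transcription factors and partners of the mitochondrial RNA polymerase, only Mrpl12 was called in naive cells, at -0.34 (adjusted p = 0.024). Of 35 genes of mitochondrial RNA processing, modification and decay, 3 rose and 2 fell, with Nsun3, which modifies the methionine tRNA, at 0.62 (adjusted p = 6.6e-04) and Mettl17 at -0.33 (adjusted p = 0.0041). Of 13 translation factors, Tufm, the elongation factor, was lower at -0.48 (adjusted p = 9.2e-04) and Mrrf, the ribosome recycling factor, stood at 0.56 (adjusted p = 0.0027). In effector cells replication genes counted 0 rises and 3 falls, including Tfam, the factor that packages mitochondrial DNA, at -0.18 (adjusted p = 0.027), and Dna2, at -0.37 (adjusted p = 0.0053). Of the 8 transcription genes 0 were called there by limma or in the authors' deposited table, and 1 was lower at an unadjusted p under 0.05. Nsun3 was lower in effector cells, at -0.40 (adjusted p = 0.010), and so was the translation factor Gfm2, at -0.32 (adjusted p = 0.0022). In memory cells replication genes counted 2 rises and 1 fall, with Dna2 at 0.84 (adjusted p = 0.0058), and 1 of 8 transcription genes fell, Tfb2m, which melts the promoter, at -0.52 (adjusted p = 0.0024). Trmt5, of the RNA processing list, fell there too, at -0.70 (adjusted p = 0.0022), and Nsun3 was not called, at -0.26 (adjusted p = 0.13). Beside these stand 12.9% of all genes higher and 11.9% lower in naive cells, 10.7% and 9.37% in effector cells, and 12.1% and 7.00% in memory cells.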

How the data were processed

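Poly-A RNA of 18 libraries was sequenced after random priming. Per the submitters' processing notes, the build was GRCm39 and the tools were DESeq2 1.42.0, featureCounts 2.0.6, fastp and HISAT2 2.2.1, with no roles given; the annotation and the settings for strand and multiply mapped reads are not given in the sources used here. The authors deposited a signal per gene and library, which the values show to be reads divided by 1 size factor per library. The value of 1 read was found from the steps between low values and gave whole reads for 100% of values (tolerance 1e-05). Tables of the 3 subsets were scaled separately. The log2 fold changes and the p-values that the authors deposited run WT over cKO and are used only where named.

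Genotype effects were tested within each subset with limma 3.58.1 (intensity trend) on log2(normalised reads + 1), which understates changes of low genes, for genes that reached 10 normalised reads in 3 or more libraries, with Benjamini-Hochberg adjustment over all genes and a threshold of 0.05. limma was kept as the test for normalised values, and edgeR on the recovered reads was run as an alternative. Interactions used all 18 libraries. Subsets were compared with edgeR 4.0.16 (quasi-likelihood, TMM) on the recovered reads of genes in all 3 tables. Shares per library were compared with exact permutation tests. Nuclear copies were searched with BLASTN 2.17.0+ among the transcripts of GENCODE M21, so nuclear sequence outside annotated transcripts was not covered. The fits were tested on simulated data in R 4.3.3. Alternatives were other pseudocounts, filters, scalings and tools (DESeq2, voom), the replicate block and leaving out each library.

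All mRNAs and rRNAs, and each tRNA gene that passed the filter in any table, are named; from each nuclear list at most 2 called genes with the smallest adjusted p are named. Where values of a tRNA gene under the filter in every subset are given, the gene was chosen after its values were seen. The members and lists were chosen with earlier results of these data known.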

Additional observations from a re-analysis of the deposited data

Results flagged for a closer look

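The genotype effect (cKO minus WT, log2) differed between subsets for the genes below, by the interaction term of limma over 18 libraries with an adjusted p under 0.05, and each value is a difference of 2 effects. For effector minus naive cells, the interaction was called for the mRNAs mt-Cytb (2.01), mt-Nd4 (1.79), mt-Co1 (2.08), mt-Nd1 (1.58), mt-Nd2 (1.58), mt-Nd5 (1.73), mt-Nd6 (1.81), mt-Atp8 (2.80), mt-Co2 (2.67), mt-Co3 (2.21), mt-Nd4l (1.202) and mt-Atp6 (2.04). Among the rRNA and tRNA genes of the same difference it was called for mt-Tw (-1.47), mt-Ty (-1.60), mt-Tn (-0.80), mt-Tp (1.55), mt-Tc (-1.58) and mt-Tl1 (-1.31). For memory minus naive cells, the interaction was called for the mRNAs mt-Cytb (0.90), mt-Nd4 (0.80), mt-Co1 (1.01), mt-Nd1 (0.67), mt-Nd2 (0.60), mt-Nd5 (0.85), mt-Nd6 (1.14), mt-Co2 (1.64), mt-Co3 (1.15) and mt-Atp6 (1.30). Among the rRNA and tRNA genes of the same difference it was called for mt-Ty (-1.22), mt-Tn (-0.96), mt-Rnr2 (-0.65), mt-Tc (-1.45) and mt-Tl1 (-1.59). For memory minus effector cells, the interaction was called for the mRNAs mt-Cytb (-1.10), mt-Nd4 (-0.996), mt-Co1 (-1.07), mt-Nd1 (-0.91), mt-Nd2 (-0.98), mt-Nd5 (-0.88) and mt-Nd6 (-0.67). Of the other genes it was called for mt-Tp (-0.96). Among the tRNA genes, calls were lost in the effector minus naive difference for mt-Tw without naive cKO replicate 1, effector WT replicate 3 or effector cKO replicate 2, and for mt-Tn without naive WT replicate 2, naive cKO replicate 1 or 2, effector WT replicate 3 or effector cKO replicate 3. In the memory minus naive difference mt-Ty lost its call without any one of 8 of the 12 libraries (adjusted p of 0.060 to 0.11).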

How the results depend on the processing

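No called value changed sign under any alternative run: with all libraries kept, 966 called values stayed past the threshold and 25 did not, and with 1 library left out 1153 did and 95 did not. Fitting all 18 libraries together gave 1519 genes called in effector cells, instead of 2779, and 1 mRNA higher instead of 5. edgeR with TMM, a pseudocount of 5 and the replicate block each called 1 mRNA (mt-Nd3) lower in the effector minus naive difference, instead of 0. With 1 library left out, the genes called ranged over 2261 to 3301 in naive and 1839 to 3310 in memory cells. The mRNAs called ranged over 0 to 1 higher in naive cells and 5 to 8 higher in effector cells, 0 to 1 lower for effector minus naive and 0 to 1 lower for memory minus naive effects, 1 to 6 lower for effector against naive WT, 1 to 3 higher for memory against naive WT, 0 to 1 lower for memory against naive cKO and 0 to 1 higher for memory against effector cKO. Values that were not called and changed sign with all libraries kept were mt-Rnr1 in the memory minus naive difference of effects (0.0709, edgeR), effector against naive WT for mt-Co1 (0.00842, DESeq2), mt-Co2 (0.00298, DESeq2) and mt-Nd3 (-0.000779, library totals), memory against naive WT for mt-Nd5 (-0.000734, library totals) and mt-Co3 (0.00842 with voom, 0.0156 with DESeq2), and mt-Rnr2 for memory against effector cKO (0.0107, library totals). Others changed sign without some single library, over the log2 ranges given here. For the effector genotype effect these were mt-Rnr2 -0.0127 to 0.171, mt-Atp8 -0.118 to 0.607, mt-Co2 -0.0729 to 0.461, mt-Co3 -0.0602 to 0.271, mt-Rnr1 -0.115 to 0.0988, mt-Nd4l -0.252 to 0.0985, mt-Nd3 -0.192 to 0.128 and mt-Atp6 -0.198 to 0.303. For the memory genotype effect these were mt-Nd3 -0.0514 to 0.29. For the memory minus naive difference of effects these were mt-Rnr1 -0.198 to 0.12. For effector against naive, WT these were mt-Co1 -0.0832 to 0.0647, mt-Co2 -0.0953 to 0.0558 and mt-Nd3 -0.0137 to 0.142. For memory against naive, WT these were mt-Nd5 -0.0756 to 0.142, mt-Nd6 -0.221 to 0.0491, mt-Co2 -0.244 to 0.0214, mt-Co3 -0.109 to 0.204 and mt-Atp6 -0.188 to 0.233. For memory against effector, WT these were mt-Co2 -0.232 to 0.0338. For memory against effector, cKO these were mt-Nd2 -0.183 to 0.181 and mt-Rnr2 -0.202 to 0.0249. The cause of these changes was not tested. Same-numbered libraries shared little deviation from their group means, with correlations of -0.103 to 0.069. Whether they came from the same mouse cannot be told from this. With the replicate block 2469, 2687 and 2226 genes were called in naive, effector and memory cells, and mt-Tn in naive cells lost its call (adjusted p = 0.060). The block called 12 mRNAs lower in memory cells, instead of 11. Low counts limit mt-Atp8 and the tRNA genes, and shared sequence limits mt-Co2, mt-Co3, mt-Atp6, mt-Nd3 and mt-Nd4l.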
